A study of Mus musculus with 9 samples.

Results

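T and natural killer (NK) lymphocytes were picked out by their transcripts from single-cell RNA libraries of 5 mouse ependymomas driven by the ZFTA-RELA fusion and 4 control brains. A barcode, the tag shared by all transcripts of a droplet, was eligible when it held at least 200 genes and under 15% of its unique molecular identifiers (UMIs, the tags by which captured transcripts are counted) came from mitochondrial genes. It was a member when at least 3 of 10 lymphocyte genes (Cd3d, Cd3e, Cd3g, Trac, Trbc2, Nkg7, Gzma, Ms4a4b, Prf1 and Klrk1) had 1 or more UMIs. There were 153 members among 287538 eligible barcodes. A member with any of the 3 Cd3 genes was called T, of which there were 118, and a member with Nkg7 and no Cd3 gene was called NK, of which there were 33. The remaining 2 members had neither.

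The tumors came from NestinCreERT2;Fus1 mice, in which the fusion allele is switched on by tamoxifen-inducible Cre in cells that use the Nestin promoter, and the controls were NestinCreERT2;TdT brains, so that the controls also carried the Cre. All mice were 6 to 8 weeks old at collection, and each of the 9 libraries stands for 1 mouse by its label. Tissue was dissociated, passed through 40% Percoll, and sorted with DAPI and an antibody to the red cell antigen Ter119 before 5′ capture on the 10x Genomics platform. These are the stains named in the labels; the study's general single-cell methods also name an antibody to CD45, the common leukocyte antigen, so the gate of these libraries is uncertain and shares of barcodes are not shares of all brain cells or of all leukocytes. T cell receptor sequencing libraries of these suspensions were not analysed here.

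T cells recognise antigens through a receptor of paired alpha and beta or gamma and delta chains that signals through the CD3 proteins. Most alpha-beta T cells also use CD4 or CD8 to read MHC class II or class I. NK cells lack that receptor and read target cells through activating and inhibitory receptors such as NKG2D, NKp46 and the Ly49 family. Both kinds kill with perforin and granzymes, and both are sparse in the healthy brain parenchyma.

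Up to 10000 cells were loaded per library. Control libraries listed 75222 to 86516 barcodes, tumor 3 listed 9001 and the other tumors 17445 to 26341, so all lists but that of tumor 3 held more barcodes than cells loaded. Of these, 62.5 to 73.6% were eligible in the controls, 17.1% and 41.6% in tumors 1 and 2, and 99.7% and 100.0% in tumors 4 and 5. At least 3 neuronal genes were found in 97.3 to 99.9% of eligible control barcodes, and in all 30 control members. In tumors that share ran from 3.64% in tumor 4 to 65.9% in tumor 1. Neuronal transcripts therefore also stood in barcodes of other cells. Leaving out members with at least 3 microglia, neuron or neural progenitor genes removes all 30 control members and all 7 members of tumor 1. In tumor 2, 12 of 24 members held at least 3 neuronal genes. UMIs of the fusion construct totalled 12 to 1152 per tumor library and 0 in each control library.

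Members carried more RNA than most droplets, as eligible barcodes had a median of 814 to 2003 UMIs per library. A barcode with more UMIs meets a rule of 3 genes more easily, so the rule itself favours this. The median was 2420 UMIs in tumor members and 3388 in control members, and 4 of the 153 members held under 1000. No barcode was a member in more than 1 library among the 152 that could be compared. No member held 3 or more genes of the B cell, dendritic cell or neutrophil lists, though 22 of 123 tumor and 10 of 30 control members held at least 1 B cell gene. At least 3 of 7 astrocyte genes were found in 27 tumor members, 20 of them in tumor 4, and in 9 control members. At least 3 of 7 oligodendrocyte genes were found in 10 tumor and 23 control members. At least 3 of 10 macrophage genes were found in 13 tumor members, 11 of them in tumor 4. Microglial genes (at least 3 of 10) were found in 15 members, 12 of them in tumor 4. Erythroid genes (at least 3 of 6) were found in 9 of 12 members of tumor 3, whose other barcodes gave 16.2% of UMIs to erythroid genes, and in 1 of 4 members of control 3.

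Membership was set by the 10 rule genes, so their levels are a description. Ms4a4b, a membrane protein of T and NK cells, was detected in 69.5% of 95 T and 59.3% of 27 NK members of tumors. Cd3g and Cd3d, chains of the CD3 complex, were detected in 86.3% and 85.3% of tumor T members, and Cd3e in 54.7%. Nkg7, a granule membrane protein, was found in 62.1% of tumor T members, so most T members also carried this transcript of cytotoxic cells. Apart from the Cd3 genes that define the kinds, Gzma, encoding granzyme A, differed most between them: it was found in 20 of 27 tumor NK members and in 2 of 95 tumor T members. Prf1, encoding perforin, was found in 17 and 6 of them. An NK member, with Nkg7 and no Cd3 gene, needed at least 2 of Gzma, Prf1, Klrk1, Ms4a4b, Trac and Trbc2. A T member could qualify without these genes, so the rule itself favours Gzma and Prf1 in NK members. In microglial barcodes of tumors (at least 3 of 10 microglial genes, median 916 to 2284 UMIs per library), the 3 Cd3 genes were detected in 0.0217 to 0.0940%, Nkg7 in 0.0145% and Trbc2 in 1.06%. Detection of genes in microglial barcodes, here and below, leaves out those that were members, which were 14 of 13851 in tumors.

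Exactly 2 rule genes were found in 67 eligible barcodes, 45 of them in controls and 22 in tumors, and 31 of the 67 had the pair Trac and Trbc2. Taking these in would raise the mean share of eligible barcodes in controls from 0.0142% to 0.0348%, and in tumors from 0.209% to 0.242%. Exactly 3 were found in 33 members (11 in controls), exactly 4 in 39 (8 in controls), and 5 or more in 81 (11 in controls). Trbc2, the second constant region of the beta chain, reached 18.1 CPM (UMIs per 1000000 UMIs) in the other eligible barcodes of controls, against 4.16 in those of tumors, whereas Cd3d stood at 0.126 and 0.390 CPM.

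Lymphocytes made up a larger share of barcodes in tumors than in controls. Members numbered 8, 17, 4 and 1 in the 4 controls, which is 0.0148%, 0.0331%, 0.00731% and 0.00168% of eligible barcodes. They numbered 7, 24, 12, 73 and 7 in the 5 tumors, which is 0.203%, 0.331%, 0.179%, 0.304% and 0.0266%. Tumors 1 to 4 lay above all controls, while tumor 5 lay below control 2. Tumors averaged 0.209% ± 0.121 (SD, n = 5), against 0.0142% ± 0.0137 (SD, n = 4) in controls, a difference of 0.195 percentage points. The ratio of the means depended on which barcodes were counted: in the 10000 barcodes with most UMIs of each library the means were 0.272% and 0.0903% (exact permutation p = 0.0952), and with a mitochondrial limit of 10% they were 0.305% and 0.0916% (exact permutation p = 0.0873). An exact two-sided permutation test over all splits of the mice into groups of these sizes gave p = 0.0238 (0.0357 after Benjamini-Hochberg adjustment over 3 shares), where 0.0159 is the smallest p the design allows. Leaving out any library other than tumor 5 moved the exact p to between 0.0536 and 0.0714, and without tumor 5 it was 0.0286.

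**Figure D1:**
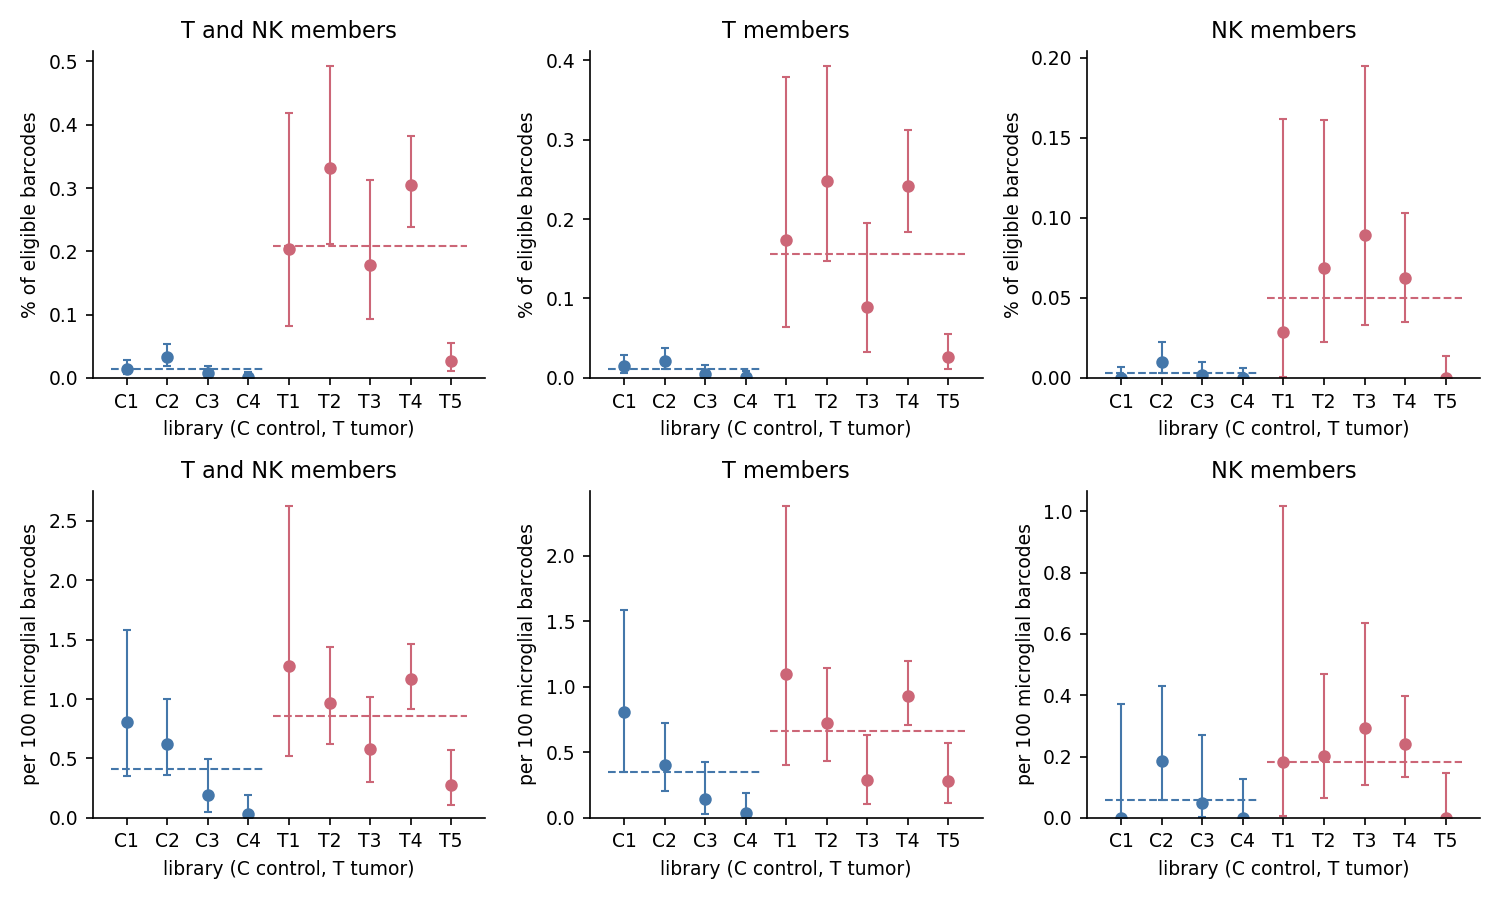
Members as a percentage of eligible barcodes (top) and per 100 microglial barcodes (bottom) in each of 4 control (C) and 5 tumor (T) libraries; points are libraries, bars exact 95% Clopper-Pearson intervals for counting error and dashed lines group means. In the top row, T members lie between 0.0266% and 0.248% in tumors, above the control maximum of 0.0214%, and in the bottom row the groups overlap in every panel.

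T members followed the same pattern. They made up 0.0148%, 0.0214%, 0.00548% and 0.00168% of eligible barcodes in the controls, from 8, 11, 3 and 1 members. In the tumors they made up 0.174%, 0.248%, 0.0895%, 0.242% and 0.0266%, from 6, 18, 6, 58 and 7 members. All 5 tumors lay above all 4 controls. The difference of means was 0.145 percentage points (0.156% ± 0.0966, n = 5, against 0.0108% ± 0.00894, n = 4) with an exact permutation p of 0.0238 (adjusted 0.0357). Without control 1, 3 or 4 the exact p was 0.0536, and without each of the other libraries it was 0.0286 to 0.0357. In the 10000 barcodes with most UMIs of each library the T means were 0.209% and 0.0729% (exact permutation p = 0.127). With a mitochondrial limit of 10% they were 0.251% and 0.0677% (exact permutation p = 0.119).

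NK members were fewer. They numbered 0, 5, 1 and 0 in controls and 1, 5, 6, 15 and 0 in tumors, or 0.0290%, 0.0690%, 0.0895%, 0.0625% and 0% of eligible tumor barcodes. A count of 0 in the 26335 eligible barcodes of tumor 5 allows a share of up to 0.0114%. The means were 0.0500% ± 0.0354 (n = 5) and 0.00289% ± 0.00464 (n = 4), and the difference of 0.0471 percentage points did not pass the exact permutation test (p = 0.0873). It did not pass without any 1 of the controls (exact permutation p = 0.107 each) or of tumors 1 to 4 (0.143 each), and passed without tumor 5, which had no NK member (0.0286).

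These shares depend on what counts as a barcode with a cell, and the number of eligible barcodes ran from 3448 in tumor 1 to 59531 in control 4. Set against microglia, the resident macrophages of the brain, members numbered 0.807, 0.625, 0.195 and 0.0344 per 100 microglial barcodes in the controls. The tumors gave 1.28, 0.968, 0.583, 1.17 and 0.278. The groups overlapped on this scale: tumors 3 and 5 lay below control 1. The means were 0.856 ± 0.418 (n = 5) and 0.415 ± 0.361 (n = 4), and neither these (exact permutation p = 0.135) nor T members alone (p = 0.214) nor NK members alone (p = 0.119) passed the test. Microglial barcodes themselves made up 1.83 to 5.29% of eligible barcodes in controls and 9.57 to 34.2% in tumors. Whether more lymphocytes per microglia were present in tumors was therefore not resolved with these libraries, and intervals on single shares cover counting error only.

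T members outnumbered NK members in most libraries. Among T and NK members, T made up 78.3% in tumor 2, 50.0% in tumor 3 and 79.5% in tumor 4, the tumors with at least 10 members (mean 69.2% ± 16.7, SD, n = 3). Control 2, the only control with that many, had 68.8%. With 1 such control no test of this share was made, and for the same reason no gene was tested between tumor and control members. Values of the 2 groups stand side by side below, and tumor 4 alone gave 58 of 95 tumor T members and 15 of 27 tumor NK members.

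Among T members, CD8 transcripts were found more often than Cd4. The rule includes genes of cytotoxic cells, which can admit CD8 members more easily. In tumors, Nkg7 was found in 27 of 29 CD8 and 2 of 6 Cd4 members, and Ms4a4b in 26 of 29 and 4 of 6. The counts below are therefore no measure of the balance of CD8 and CD4 cells. Cd8a or Cd8b1, the chains of CD8, were found in 29 of 95 tumor T members (30.5%, exact 95% interval 21.5 to 40.8%), and Cd4 in 6 (6.32%, 2.35 to 13.2%). No T member held both, and 60 held neither. The CD8 members were 6 of 6 in tumor 1, 4 of 18 in tumor 2, 1 of 6 in tumor 3, 15 of 58 in tumor 4 and 3 of 7 in tumor 5. The intervals pool these tumors and cover counting error only, not spread between mice. Tumor 1 thus stood apart, with a CD8 transcript in every T member, and Cd4 was seen only in tumors 2 and 4, in 3 members each. Without tumor 4 the CD8 count was 14 of 37 (37.8%). In controls, 5 of 23 T members held a CD8 transcript and 2 held Cd4. No NK member held a CD8 transcript, and Cd8a was found in no microglial barcode of tumors outside the members.

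**Figure D2:**
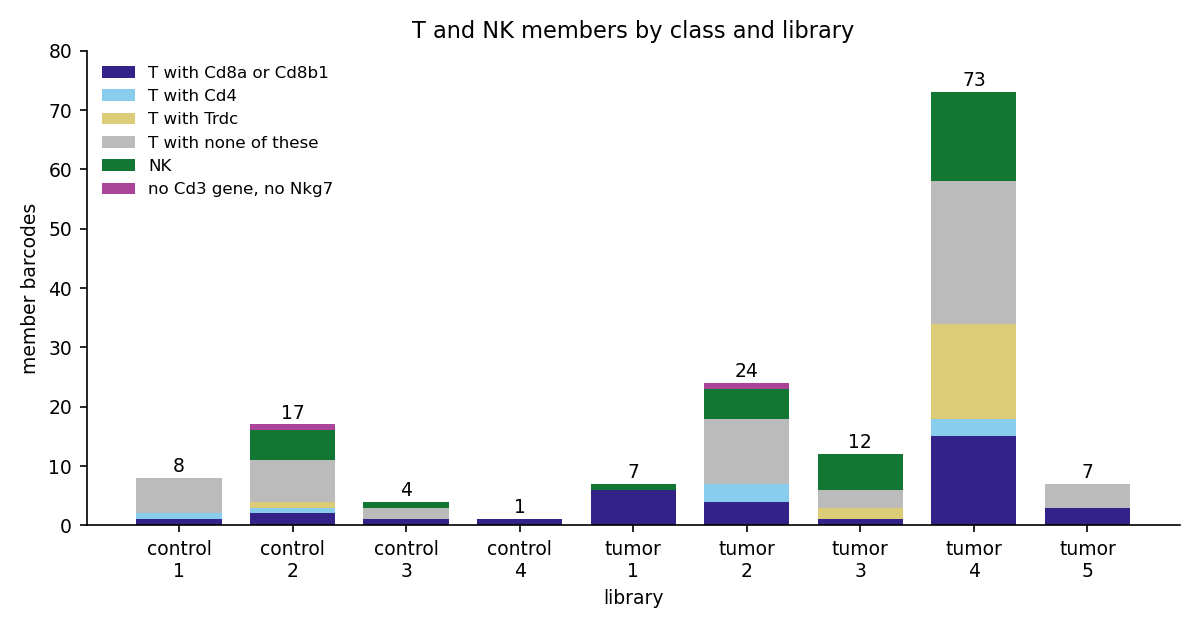
Number of members in each library, stacked by class; T members are split by detection of Cd8a or Cd8b1, Cd4, or Trdc, and no T member falls in more than 1 of these. Tumor 4 holds 73 of the 123 tumor members, all 6 T members of tumor 1 carry a CD8 transcript, and T members with Trdc stand mostly in tumor 4.

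Some cytotoxic and memory transcripts were found in many CD8 members of tumors and others in few. Ccl5, a chemokine of effector and memory T cells, was found in 23 of 29, and Ly6c2, an antigen of memory CD8 cells, in 22 of 29. Ccl4, another chemokine, was found in 13 of 29, though also in 2214 of the tumor microglial barcodes outside the members (13851 with members). Cd160, a receptor of cytotoxic cells, was found in 11 of 29. Gzmb, encoding granzyme B, was found in 10 of 29 and Gzmk, encoding granzyme K, in 6 of 29. All 6 tumor T members with Gzmk were CD8 members, 3 in tumor 1 and 3 in tumor 4. Ifng, encoding interferon gamma, was found in 3. Of the same 29, Prf1 was found in 3, Gzma in 1, Gzmc in 0, Il7r in 7 and Tcf7 in 4. The 6 Cd4 members included 3 with Tnfrsf4, 3 with Izumo1r, the folate receptor 4 of regulatory and follicular helper cells, and 2 with Ctla4.

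No member carried a UMI of Foxp3, the lineage factor of regulatory T cells. In the tumors, 0 of 95 T members allows a share of members with a Foxp3 UMI of up to 3.16%, and in the controls 0 of 23 allows up to 13.0%. Such limits cover the counting of members with a UMI and not transcripts missed at this depth, so they set no limit on the share of cells that express the gene. Il2ra, the high-affinity IL-2 receptor chain, was found in 5 of 95 tumor T members and Ctla4 in 7. Il10 was found in 0. Tnfrsf18, encoding GITR, was found in 29 tumor T members, 9 of them CD8 members, and Capg, an actin-capping protein gene on the same list of regulatory T cell genes, in 36, of which 31 had no coreceptor transcript.

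A further set of T members held Trdc, the constant region of the delta chain. Trdc was found in 18 of 95 tumor T members (18.9%, exact 95% interval 11.6 to 28.3%): 16 of 58 in tumor 4, 2 of 6 in tumor 3 and none in tumors 1, 2 and 5. In controls it was found in 1 of 23, in control 2. Without tumor 4, 2 of 37 tumor T members held it. The interval pools members of all tumors and does not cover spread between mice. Trdc was not confined to T members, since 6 of 27 tumor NK members, 4 of them in tumor 3, also held it. Whether these NK members were T cells with missed Cd3 transcripts was not tested.

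None of the 18 held Cd8a, Cd8b1 or Cd4, and 1 held Trac, against 36 of the other 77 tumor T members. Of the beta chain genes, Trbc2 was found in 17 of 18 against 60 of 77, and Trbc1 in 8 of 18 against 29 of 77. Trac and Trbc2 are rule genes, so the rule itself shaped their counts in both sets. The choice of genes for this comparison was made after their values were seen, and the comparison is a description. Of the gamma chain genes, Tcrg-C1 was found in 8 of 18 against 7 of 77, and Tcrg-C2 in 6 of 18 against 6 of 77, while Tcrg-C4 was found in 6 of 18 against 12 of 77. Within tumor 4 these counts were 7 of 16 against 7 of 42, 5 of 16 against 2 of 42, and 4 of 16 against 10 of 42. Cd163l1, encoding the scavenger receptor SCART1 of IL-17-producing gamma-delta T cells, was found in 8 of 18 against 1 of 77. Blk, a kinase of B cells and of these T cells, was found in 6 against 1, and Maf, a factor of IL-17 programmes, in 7 against 5. Il23r, the IL-23 receptor gene, was found in 3 against 0. Further genes known from these cells were hardly detected: Sox13 in 1 against 0, Il1r1 in 1 against 1, Zbtb16 in 0 against 2 and Ccr6 in none.

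Il17a itself, the cytokine gene, was found in 8 tumor T members, 7 in tumor 4 and 1 in tumor 3, with 29 UMIs in all. It was found in 4 of 18 members with Trdc and 4 of 77 without it. No NK member, no control member and no microglial barcode of tumors outside the members held it. All 8 members with Il17a lacked a coreceptor transcript.

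Other genes are given with the same counts. Capg was found in 14 of 18 against 22 of 77, S100a4, a calcium-binding protein gene, in 14 against 21, and Cxcr6, a chemokine receptor of tissue-resident cells, in 12 against 26. Tmem176a and Tmem176b, membrane channel genes expressed in IL-17 cells, were each found in 12 of 18, against 19 and 22 of 77. Ly6c2 was found in 1 of 18 against 36 of 77, and Cd6, Cd5 and Cd28 in 0 of 18 against 15, 8 and 14 of 77. Il7r was found in 9 of 18 against 30 of 77, Cd69 in 9 of 18 against 32 of 77, and Itga1, an integrin gene of the residency list, in 2 of 18 against 10 of 77. Of the members with Trdc, 16 of 18 stood in tumor 4, so the counts within that tumor are given too. They were 7 of 16 against 1 of 42 for Cd163l1 and 13 of 16 against 19 of 42 for Capg. They were 13 of 16 against 16 of 42 for S100a4 and 0 of 16 against 18 of 42 for Ly6c2. They were 11 of 16 against 19 of 42 for Cxcr6, and 11 of 16 against 15 and 17 of 42 for Tmem176a and Tmem176b. For Cd6, Cd5 and Cd28 they were 0 of 16 against 8, 2 and 3 of 42, so most of the other members with Cd5 or Cd28 stood outside tumor 4, and the pooled counts of these genes are not a contrast within a tumor. For Il17a they were 3 of 16 against 4 of 42, for Il7r 8 of 16 against 14 of 42 and for Cd69 8 of 16 against 20 of 42. The median depth was 2643 UMIs with Trdc and 2401 without. A count of 0 in 18 members allows up to 16.7% of members with a UMI.

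**Figure D3:**
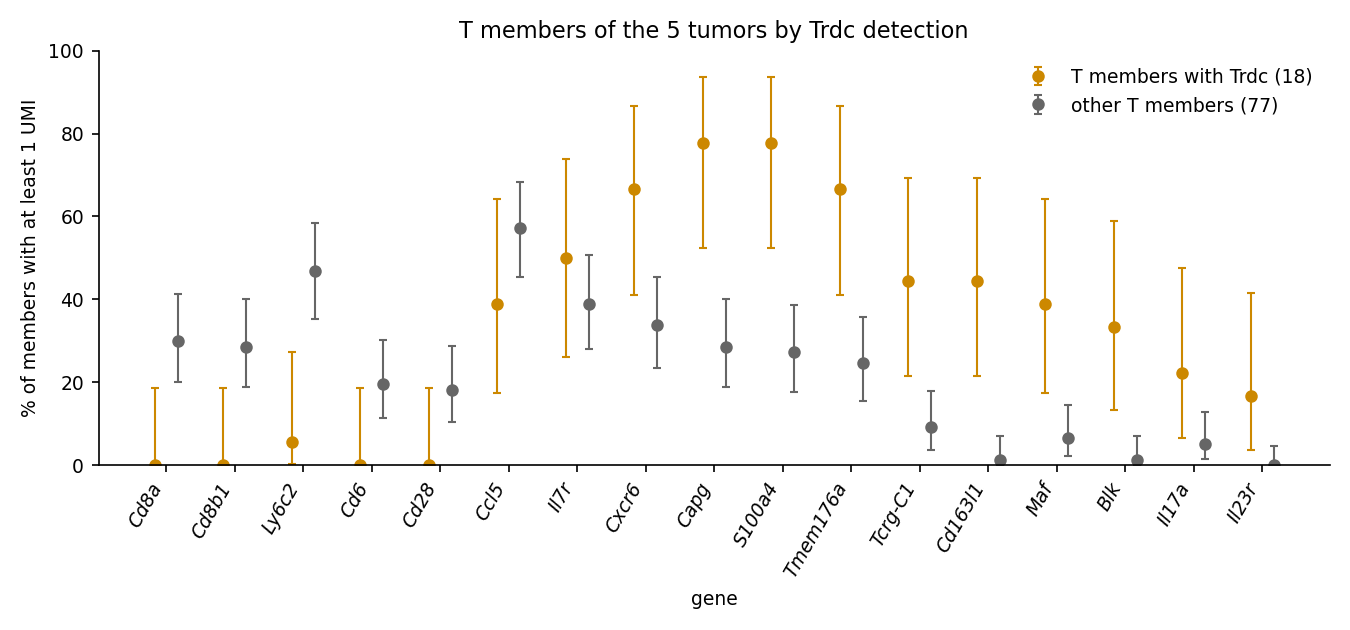
Percentage of tumor T members with at least 1 UMI of each gene, for 18 members with Trdc and 77 without; points are pooled over 5 tumors, of which tumors 3 and 4 gave all 18, and bars are exact 95% Clopper-Pearson intervals for counting error. Capg and S100a4 were each detected in 77.8% of members with Trdc, against 28.6% and 27.3% of the others, and Cd8a and Cd8b1 in none.

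NK members were rich in NK receptor transcripts outside the rule. At least 3 of 18 NK receptor and adaptor genes were found in 25 of 27 tumor NK members and in 21 of 95 tumor T members. Klre1 was found in 20 of 27 NK and 12 of 95 T members, Klrd1, encoding CD94, in 19 and 27, and Ncr1, encoding NKp46, in 15 and 6. Genes of the Ly49 family (Klra) were found in 20 of 27 NK and 12 of 95 T members. Klra4 was found in 8 NK members (1, 2 and 5 in tumors 2, 3 and 4) and in no T member, and Klrg1, a receptor of mature NK cells, in 7 and 0. Fcer1g and Tyrobp, the signalling adaptors of these receptors, were found in 25 and 23 NK members; both genes are also expressed by microglia, and 69.6% and 70.2% of tumor microglial barcodes held them, and the part of microglial transcripts in their detection in 24 and 22 T members was not tested.

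Ncr1 or Klrb1c, encoding NK1.1, was also found in 12 T members of tumors, 11 of them in tumor 4. Klrb1c was found in 6 of 18 members with Trdc and in 5 of 77 without it, and in 1 of the CD8 members.

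Transcripts of antigen receptor constant regions were not confined to T members. Trbc1 was found in 13 of 27 tumor NK members and 37 of 95 T members, and Trbc2 in 9 and 77, whereas Trac was found in 2 and 37. Trbc2 and Trac are rule genes that could help admit a member. NK members were called by having no Cd3 UMI, and whether some were T cells with missed Cd3 transcripts was not tested. The only NK member of tumor 1 held Trac. Variable gene segments were almost unseen: 2 of 95 tumor T members held a Trbv UMI (Trbv3 and Trbv16) and 3 a Trav UMI, each segment in a single barcode, which is too few to compare clones. No NK member held a Trbv or Trav UMI.

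Several cytotoxic granule transcripts were found more often in NK than in T members, and others were not. Gzmb was found in 22 of 27 NK members (0, 4, 5, 13 and 0 in tumors 1 to 5) and in 20 of 95 T members (3, 2, 0, 15 and 0). Gzmc was found in 6 and 4, Serpinb9, the inhibitor that protects a killer from its own granzyme B, in 11 and 12, and Fasl, the Fas ligand gene, in 4 and 11. Ctsw, encoding the protease cathepsin W, was found in 19 and 47. Srgn, the proteoglycan of the granule core, was found in 63.0% of NK and 68.4% of T members, Lamp1 in 33.3% and 41.1%, and Gzmk and Gzmm in 0 NK members and 6 and 2 T members. In controls, Gzmb was found in 5 of 6 NK and 1 of 23 T members.

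Among secreted factors Ccl5 led. It was found in 25 of 27 NK and 51 of 95 T members of tumors, and reached 4837 CPM over all tumor members against 48.1 in the other eligible barcodes. Control members held 1341 CPM, against 3.17 in the other barcodes. Xcl1, a chemokine that attracts cross-presenting dendritic cells, was found in 10 NK and 21 T members, and Ccl4 in 16 and 19. Ifng was found in 5 NK and 8 T members of tumors (11 of these 13 in tumor 4) and in none of 30 control members. Tnf was found in 8 T members, all in tumor 4, and Csf2, the gene of GM-CSF, in 3 T and 2 NK members. Il13 and Il5, cytokines of type 2 immunity, were found in no member. A count of 0 allows up to 11.1% of members with a UMI among 27 tumor NK members and 10.0% among 30 control members.

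**Figure D4:**
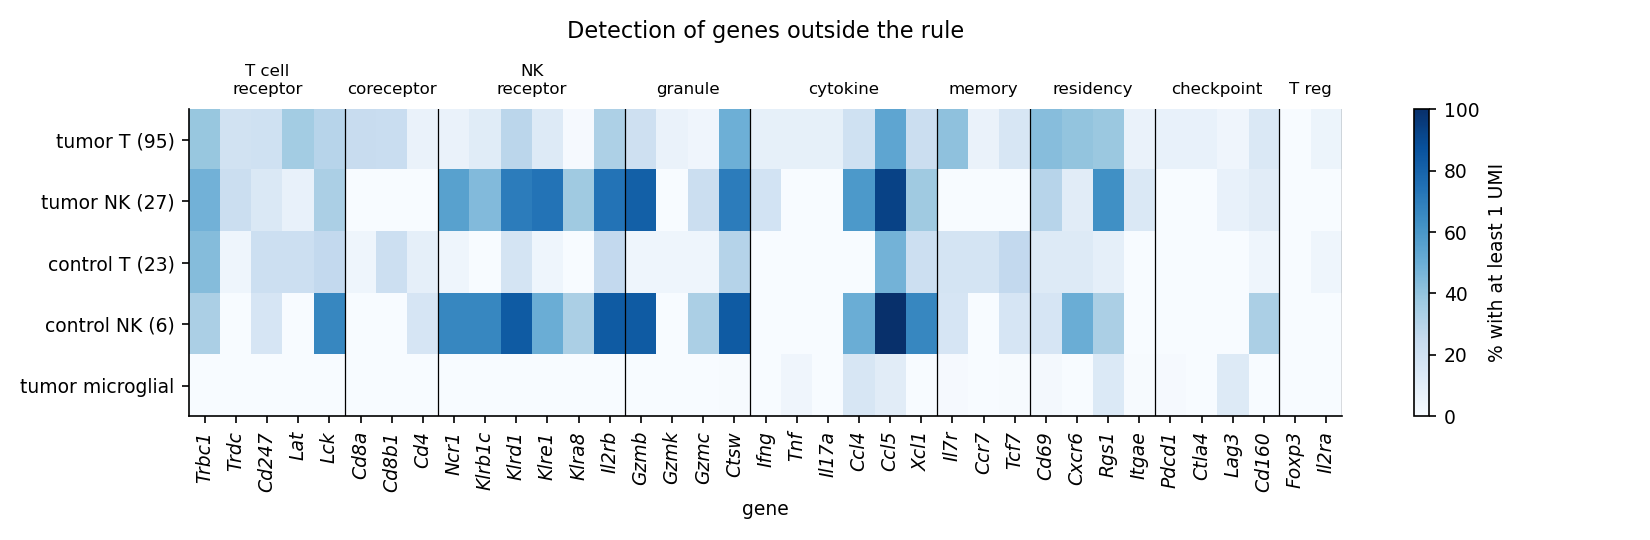
Share of members with at least 1 UMI of genes outside the rule, as a heat map from 0 to 100%, in tumor and control T and NK members and in microglial barcodes of tumors; numbers of barcodes are given in the row names. Gzmb was detected in 81.5% of tumor NK members and 21.1% of tumor T members, Il7r in 0% and 41.1%, and Foxp3 in none.

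Memory transcripts stood mostly in T members. Il7r, the survival receptor of naive and memory T cells, was found in 39 of 95 tumor T members (2, 11, 2, 22 and 2 in tumors 1 to 5) and in no NK member, and in 4 T members and 1 NK member of controls. Tcf7, encoding the memory factor TCF1, was found in 15 and 0. Ccr7, a receptor for lymph node entry, was found in 6 of 95 tumor T members. Klf2, a factor of circulating cells, was found in 28 T and 14 NK members, but also in 21.7% of tumor microglial barcodes.

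Residency transcripts were found in T members of several tumors. Cd69, which holds lymphocytes in tissue, was found in 41 of 95 tumor T members, 28 of 58 in tumor 4 and 13 of 37 in the others, and in 8 of 27 NK members. Cxcr6 was found in 38 T and 3 NK members. It was found in 4 of 6 T members of tumor 1, 30 of 58 in tumor 4 and 4 of 31 in tumors 2, 3 and 5 together. Rgs1, a brake on chemokine signalling, was found in 31 of 58 T members of tumor 4 and 5 of 37 in the others, and in 17 of 27 NK members. It was also found in 13.7% of tumor microglial barcodes, and 12 of the 15 members with at least 3 microglial genes stood in tumor 4; their part in the Rgs1 counts was not tested. Itgae, encoding CD103, was found in 4 of 58 and 2 of 37. In controls, Cd69 was found in 3 of 23 T members, Cxcr6 in 3 and Rgs1 in 2.

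The inhibitory receptors PD-1, CTLA-4, LAG-3, TIM-3 and TIGIT were rarely detected. Pdcd1, encoding PD-1, was found in 7 of 95 tumor T members (1, 2, 3 and 1 in tumors 2 to 5), and Lag3 in 4. Havcr2 and Tigit were each found in 0 T members and 1 NK member. At least 1 of these 4 genes or Ctla4 was found in 15 of 95 tumor T members (15.8%), and in 0 of 23 control T members, which allows up to 13.0% of members with a UMI. On the full list of 9 checkpoint genes, at least 1 was found in 44 of 95 tumor T members (46.3%) and 8 of 23 control T members (34.8%). Lag3 and Havcr2 were found in 12.6% and 12.9% of tumor microglial barcodes, against 1.11% for Pdcd1 and 0.0145% for Ctla4. Cd96, an adhesion receptor of T and NK cells, was found in 18 of 95 T and 4 of 27 NK members, and Cd160 in 14 and 3. Of the costimulatory genes, Cd28 was found in 14 tumor T members, Icos in 13 and Cd27 in 13, while Tnfrsf9, encoding 4-1BB, was found in 8 T and 6 NK members and in no control member.

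At least 2 of 10 cell cycle genes were found in 18 of 95 tumor T members, in 4 of 27 tumor NK members, in 1 of 23 control T members and in 1 of 6 control NK members. Stmn1, a gene of the list that neurons also express, was found in 41.5% of tumor microglial barcodes. Without it, a choice made after its values were seen, at least 2 of the other 9 were found in 11, 0, 0 and 1 of these members. Mki67 was found in 9 T members, 8 in tumor 4 and 1 in tumor 1. Of the 11 tumor T members counted without Stmn1, 7 also held at least 2 neural progenitor genes, as did 43 of all 95 tumor T members (45.3%). With 11 members these shares cannot be told apart. The other eligible barcodes of tumors held Mki67 at 100.0 CPM against 77.2 CPM in members. The part of tumor cell transcripts in the cell cycle counts was not tested.

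Interferon-stimulated genes were found most often in members of tumors 1 and 4: at least 2 of 10 such genes were found in 5 of 7 members of tumor 1 (71.4%) and in 68.5% of 73 members of tumor 4. Bst2 was found in 4 of 6, 3 of 18, 1 of 6, 37 of 58 and 1 of 7 T members of tumors 1 to 5. By kind, at least 2 of these genes were found in 51 of 95 tumor T and 9 of 27 tumor NK members, and in 10 of 23 control T members. Microglial barcodes of tumors also held Bst2, in 46.9%. MHC class I transcripts were near universal: H2-K1 was found in 91 of 95 T and 26 of 27 NK members of tumors, at 1932 CPM against 354 CPM in the other barcodes, and in 26 of 30 control members at 857.6 CPM against 19.8 CPM.

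Outside the rule, 20 genes were named by the highest lowest ratio of members to the other eligible barcodes of the same tumor, over tumors 2, 3 and 4. They were Ccl5, Gimap3, Trbc1, Klrd1, Ptprcap, Gzmb, Skap1, Ctsw, Gimap4, Hcst, Il2rb, Cd69, Il7r, AW112010, Ltb, Ly6c2, Dusp2, Cd2, Ptpn22 and Txk. The log2 ratio of CPM + 10 for Ccl5 was 6.69, 8.79 and 5.18 in tumors 2, 3 and 4. For Gimap3, a GTPase gene of lymphocyte survival, it was 5.49, 5.56 and 4.82, and for Ptprcap, which encodes a partner of CD45, 4.74, 6.06 and 5.63. Hcst, the DAP10 adaptor through which NKG2D signals, was found in 63 T and 16 NK members. Skap1, an adaptor of the T cell receptor pathway, was found in 43 T and 11 NK members. Genes known from lymphocytes thus led although the rule did not use them; since the same barcodes chose the members, no test was made.

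**Figure D5:**
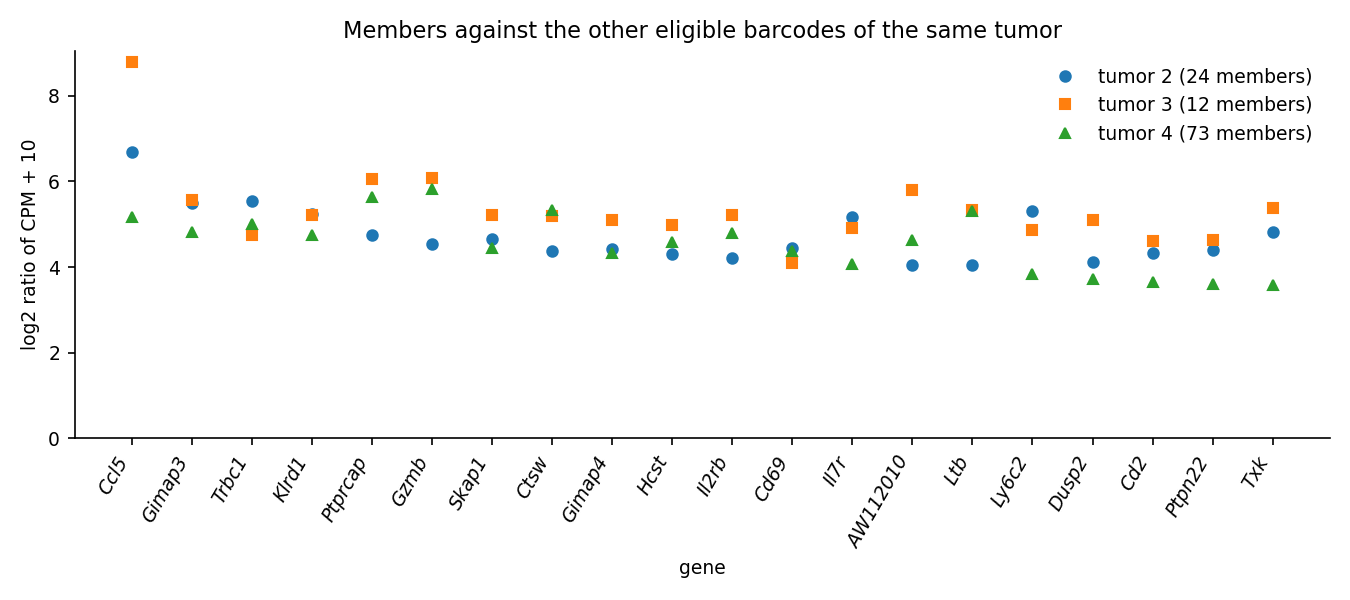
Log2 ratio of CPM + 10 between members and the other eligible barcodes of the same tumor for 20 genes outside the rule, in the 3 tumors with at least 10 members. All ratios are positive, from 3.58 for Txk in tumor 4 to 8.79 for Ccl5 in tumor 3.

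The same ranking of T against NK members in tumors 2, 3 and 4 gave Il7r, Cd8b1, Cd8a, Gm8369, Lat, Idh3g, Cblb, S100a4, Plac8 and Tcf7 as the 10 genes higher in T. Where NK members held 0 UMIs, as for Il7r, Cd8a and Cd8b1, the size of the ratio was set by the pseudocount and is not given. Lat, the scaffold on which T cell receptor signals assemble, was found in 34 of 95 T and 2 of 27 NK members. In the other direction stood Klra4, Irf8, Klra8, Plek, Ybx3, Klra3, Klrb1c, Tyrobp, Bhlhe40 and Ccl5. Irf8, a factor of NK and myeloid cells, was found in 14 NK and 7 T members, and Bhlhe40, a factor of cytokine production, in 12 and 10. Irf8, Plek and Tyrobp were also found in 23.2%, 18.7% and 70.2% of tumor microglial barcodes. Idh3g and Ybx3 were found in 18.3% and 13.8% of them, and their CPM over all tumor members was no higher than in the other barcodes.

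The 2 members with neither a Cd3 gene nor Nkg7 stood just inside the threshold. The member of control 2 held Trbc2, Ms4a4b and Klrk1 in 1997 UMIs, and the member of tumor 2 held Gzma, Ms4a4b and Klrk1 in 3826 UMIs. They were left out of the T and NK values.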

How the data were processed

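Single-cell 5′ gene expression was measured in 9 libraries, 1 per mouse. Per the submitters' notes and the study's methods, the authors aligned reads with Cell Ranger (7 in the notes, 6.1.2 in the matrix headers) to mm10 and used Scanpy 1.8.2. The deposited matrices hold UMI counts per gene and barcode, not normalized. The barcode and gene lists deposited with them, classed as other, were used to name barcodes and genes. The barcode list of control 4 was shorter than its matrix, so its barcodes were not matched to other libraries, and its genes were read in the order of the other gene lists.

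Eligible barcodes had at least 200 genes and under 15% mitochondrial UMIs. Members were found from the counts as deposited. No doublet caller was run, no ambient RNA was removed and no clustering was done. The members and gene lists were chosen with earlier results of these data known. Named genes are those of the lists, plus the 20 genes outside the membership rule with the highest lowest log2 ratio of members to other barcodes, and the 10 in each direction for T against NK members, over tumors with at least 10 members and among genes with at least 20 UMIs in tumor members. CPM are UMIs per 1000000 UMIs summed over a set of barcodes, with a pseudocount of 10 CPM in ratios. Shares per mouse were compared between 5 tumors and 4 controls by exact two-sided permutation, coded with numpy 2.4.6 and tested on simulated data. Intervals were computed with scipy 1.17.1. A share of 0 is given with the limit that 3 counts allow, and 95% intervals are Clopper-Pearson; both cover counting error only. A few genes of the lists are not reported here. No count model was run on gene counts between groups, because only 1 control had at least 10 members.

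Alternatives were the number of rule genes (2 or 4), limits on genes (500 at least, 6000 at most) and mitochondrial share (10%), the 10000 largest barcodes, thinning to 1000 UMIs, members with genes of other cell types left out, microglial barcodes as denominator, each replicate left out, and a replicate block.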

Additional observations from a re-analysis of the deposited data

Results flagged for a closer look

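The share of T members with Trdc in controls was 9.09% in control 2, where 1 of 11 T members held it, and 0 in the other 3 controls. Control 2 lay farther from the rest than Dixon's 95% critical value of 0.829 for 4 samples allows. This was the single flag among 24 groups of values examined, where chance flags about 1 in 20, and it rests on 1 barcode.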

How the results depend on the processing

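For the 3 shares the tumor mean was higher under all 63 settings, with an exact p of at most 0.05 in 20. The difference of lymphocyte shares (0.195 percentage points) no longer passed the exact permutation test with a mitochondrial limit of 10% (0.214, p = 0.0873), in the 10000 barcodes with most UMIs (0.182, p = 0.0952), without members holding 3 or more microglia, neuron or neural progenitor genes (0.109, p = 0.0873, with 0 control members left), per 100 microglial barcodes (0.441, p = 0.135), or, chosen after seeing the data, without a mitochondrial limit (0.121, p = 0.0556). The difference of T shares (0.145), by the same exact permutation test, gave 0.183 (p = 0.119), 0.136 (p = 0.127), 0.0724 (p = 0.0873), 0.316 (p = 0.214) and 0.0897 (p = 0.0556) under these settings in turn. Leaving out 1 replicate gave 0.164 to 0.240 for lymphocytes, 0.122 to 0.177 for T, 0.0372 to 0.0596 for NK and 64.1 to 78.9% for the T share of T and NK members. Tumor and control libraries share replicate numbers but no litter or batch by their labels, and the correlations of same-numbered libraries were 0.238, -0.0776, -0.0956 and 0.0976. With the replicate block the differences were 0.240 for lymphocytes, 0.177 for T and 0.0596 for NK, each with an exact permutation p of 0.125, the smallest of 4 pairs. The T share of T and NK members moved by less than its SD (16.7, n = 3) under its 13 alternatives. Leaving out 1 of 3 tumors cannot move the mean by a full SD, and an SD from 3 values is a wide limit. Staying within it is therefore no measure of stability. The T share had no block value because only replicate 2 had at least 10 members in both groups, and leaving out controls does not enter it. The fits of genes between tumor and control members, with their alternatives, were not run because only 1 control had at least 10 members. Counts of members limit every share: control 4 had 1.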

Other observations

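Heat shock transcripts were listed in members of both groups. Hspa8, a constitutive chaperone gene, was found in 73 of 95 tumor T members and 29 of 30 control members. Hspa1a, the stress-inducible form, was found in 10 tumor T and 5 tumor NK members and in 0 of 30 control members. The immediate early gene Fos was found in 20 tumor T members, 16 of them in tumor 4, and in 1 of 30 control members. Among tumor NK members it was found in 7 of 15 in tumor 4 and 3 of 12 in the others. On the full list of 9 immediate early genes, at least 2 were found in 52.0% of tumor and 46.7% of control members. The other eligible barcodes held Fos at 359 CPM in tumors and 17.7 CPM in controls, against 179 CPM in tumor members, and the part of free RNA in these values was not tested.

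Lef1, a factor of naive T cells, was found in 10 of 95 tumor T members and in 10 of 23 control T members, and Rora in 12 and 11. Control other barcodes held Lef1 at 10.5 CPM and Rora at 149 CPM, and neither gene was tested between the groups.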
